A study of Caenorhabditis elegans with 18 samples.

Results

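The genes described here are 10 chaperones and folding enzymes of Caenorhabditis elegans that serve the cytosol, the mitochondrion and the endoplasmic reticulum (ER). Chaperones bind unfolded or newly made proteins and help them fold. Each compartment has its own set. The cytosol uses Hsp70 and Hsp90 proteins, the mitochondrial matrix an Hsp70 and a barrel-shaped chaperonin, and the ER an Hsp70 called BiP together with disulphide isomerases and the sugar-binding chaperones calreticulin and calnexin. Each compartment can also raise its own chaperones when unfolded protein accumulates. In this worm hsp-4 is the standard reporter of that response in the ER, and hsp-6 and hsp-60 are its reporters in mitochondria. The rule takes the members by name: a gene was taken if the deposited annotation mapped a probe set to it alone. Where several probe sets did so, the one with the highest mean over all conditions was used. All 10 were found, among 17603 genes with such a probe set.

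The cytosolic members are hsp-1 (F26D10.3), the constitutive Hsp70, and daf-21 (C47E8.5, now named hsp-90), the Hsp90. The mitochondrial members are hsp-6 (C37H5.8), the matrix Hsp70, and hsp-60 (Y22D7AL.5), the chaperonin. The 6 ER members are the BiP genes hsp-3 (C15H9.6) and hsp-4 (F43E2.8), the protein disulphide isomerases pdi-1 (C14B1.1) and pdi-2 (C07A12.4), the calreticulin crt-1 (Y38A10A.5) and the calnexin cnx-1 (ZK632.6). The product of pdi-2 is also a subunit of the prolyl hydroxylase that modifies collagen. For 7 of the 10, from hsp-60 to cnx-1, the name of the probe set ends in the manufacturer's mark for sets that can match more than 1 transcript. The authors nevertheless mapped each to 1 gene.

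Messenger RNA of whole animals of the wild-type strain N2 was measured on 1-colour Affymetrix arrays in 18 conditions with 3 arrays each. The liquid medium into which larvae hatched, S-complete, held Escherichia coli HB101 as food (fed) or none (starved). Both kinds of culture were sampled 0, 1, 3, 6, 12, 15 and 24 h after hatching. Starved larvae stay arrested in the first larval stage, L1. Fed larvae were labelled L1 up to 12 h, L1 to L2 at 15 h and L2 at 24 h. The labelled stage thus differed with food at the last 2 times, and the moulting genes given below differed with food at 12 h already. Of the other 4 conditions, 1 was embryos taken 2 h ahead of hatching and 1 was starvation in M9, another buffer, for 3 h. Refed larvae had 3 h of food following 12 h without it, and larvae called food removed had 12 h of food followed by 3 h without it.

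Levels are the authors' mean intensity over 3 arrays on a linear scale, printed with their deposited error of that mean, so each condition counted as 1 sample. The labels do not say how far apart the cultures were kept, and the error need not hold all the spread between them. Median intensities of the conditions ran from 35.1 to 41.2, and 10873 to 12332 of 22548 worm probe sets passed the authors' detection threshold. All members passed it in all 18 conditions, except hsp-4, which passed in 15 and was not detected in larvae starved for 3 h or 15 h or in M9. Fed and starved S-complete arrays were hybridized on 3 days each with 0 days in common, so hybridization day and food cannot be told apart between them. In whole animals, fewer cells of a type and less RNA per cell cannot be told apart either.

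Stage markers went with the labels in part. Of 8 genes known from embryos, 5 were never detected. The summed level of the list was 459 in the embryos, 217 to 315 in starved larvae and 231 to 322 in fed larvae. Of 6 moulting genes, 1 was never detected, and the summed level was at most 237 in starved larvae but 4741 in fed larvae at 12 h. Of 5 genes known from starved L1 larvae all were detected in some condition, and the summed level was 1741 to 2858 in starved and 301 to 771 in fed larvae.

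Both cytosolic chaperones had their largest food differences early, at 3 and 6 h. The level of hsp-1 in fed larvae was 2560 ± 176 at 0 h, 3420 ± 266 at 1 h, 4100 ± 276 at 3 h, 4757 ± 253 at 6 h, 5032 ± 267 at 12 h, 4203 ± 225 at 15 h and 4094 ± 231 at 24 h. In starved larvae it was 2082 ± 176, 1793 ± 103, 986 ± 61.3, 1171 ± 70.8, 1596 ± 106, 1934 ± 115 and 2451 ± 136 at the same times. Every fed condition lay above every starved one. At 3 h the fed level was 4.16 times the starved one, and at 24 h 1.67 times. The starved series had its lowest value at 3 h and its highest at 24 h.

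The Hsp90 gene daf-21 had a smaller range. It was 2489 ± 100 in fed larvae at 0 h, 3570 ± 153 at 3 h, 4219 ± 164 at 6 h and 3250 ± 156 at 24 h. In starved larvae it was 2078 ± 119 at 0 h, 1711 ± 71.4 at 3 h, 2567 ± 103 at 12 h, 3140 ± 171 at 15 h and 3629 ± 142 at 24 h. The fed and starved ranges overlapped, and at 24 h the starved level was the higher of the pair. Its log2 difference, fed minus starved, was 1.06 ± 0.09 at 3 h and -0.16 ± 0.09 at 24 h.

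The mitochondrial pair had its large food differences from 3 h on. The level of hsp-60 in fed larvae was 487 ± 90.9 at 0 h, 691 ± 105 at 1 h, 1163 ± 193 at 3 h, 1389 ± 126 at 6 h, 1302 ± 177 at 12 h, 1261 ± 116 at 15 h and 1036 ± 150 at 24 h. In starved larvae it was 479 ± 53.4 at 0 h, 311 ± 39.2 at 3 h, 260 ± 34.8 at 12 h and 226 ± 31.7 at 24 h. The ranges of the 2 feeding states did not overlap, though the pair at 0 h differed by less than its error. The mitochondrial Hsp70 gene hsp-6 was 147 ± 34.6 in fed and 186 ± 23 in starved larvae at 0 h, 357 ± 58.8 and 117 ± 17.4 at 3 h, and 293 ± 35.6 and 53.9 ± 11.5 at 24 h. Its ranges overlapped only through 0 h, where the fed value lay below 2 of the starved ones. The starved level at 24 h was its lowest of all 18 conditions, and for hsp-60 too.

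**Figure D1:**
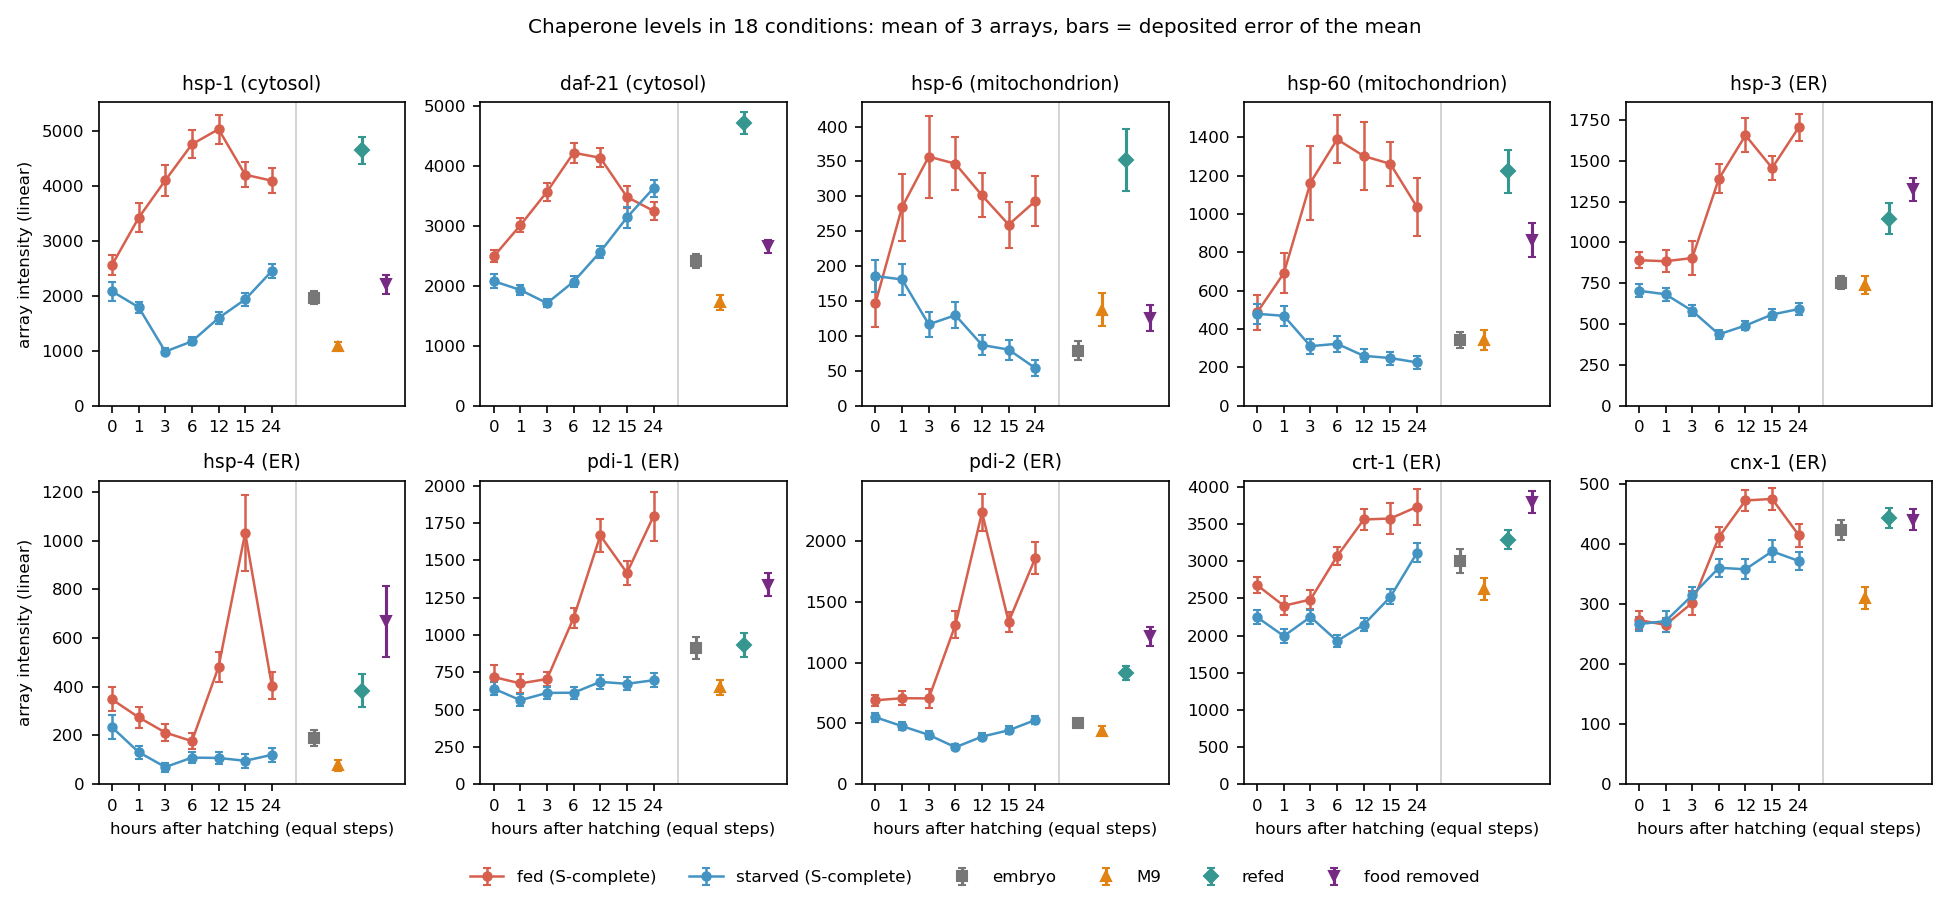
Array intensity (linear scale) of each of the 10 chaperones in the 18 conditions, as the mean of 3 arrays with the deposited error of the mean. Red and blue points are fed and starved larvae at 7 times in equal steps, and the points right of the grey line are embryos, larvae starved in M9, refed larvae and larvae whose food was removed. The fed points of hsp-1, hsp-60, hsp-3 and pdi-2 all lie above their starved points, and those of cnx-1 nearly coincide up to 3 h. The points of hsp-4 at 3 h and 15 h of starvation and in M9 were not detected.

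Of the ER members, hsp-3, pdi-1 and pdi-2 had their largest food differences at 12 h or later and smaller ones up to 3 h. The constitutive BiP gene hsp-3 was 904 ± 104 in fed larvae at 3 h, 1390 ± 88.7 at 6 h, 1656 ± 104 at 12 h and 1705 ± 83.2 at 24 h. In starved larvae it lay between 437 ± 27.6 at 6 h and 704 ± 39.6 at 0 h, below the lowest fed value of 885 ± 66.1. The isomerase gene pdi-2 was 705 ± 80.2 in fed larvae at 3 h, 1310 ± 111 at 6 h, 2236 ± 154 at 12 h, 1335 ± 84.4 at 15 h and 1861 ± 132 at 24 h. Its starved levels ran from 303 ± 24.9 at 6 h to 550 ± 38.4 at 0 h, with no overlap with the fed ones. The other isomerase gene, pdi-1, was nearly level in starved larvae, from 562 ± 38.3 to 696 ± 45.2. In fed larvae it was 704 ± 45.7 at 3 h, 1115 ± 66.5 at 6 h, 1667 ± 110 at 12 h and 1797 ± 165 at 24 h.

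The stress-inducible BiP gene hsp-4 had another course. In fed larvae it was 348 ± 49.5 at 0 h, 274 ± 42.1 at 1 h, 212 ± 35.5 at 3 h and 176 ± 31.7 at 6 h, then 481 ± 62.6 at 12 h, 1032 ± 157 at 15 h and 405 ± 55.1 at 24 h. The lowest fed value came at 6 h and the highest at 15 h, the L1 to L2 sample. In starved larvae it was 233 ± 48.8 at 0 h, and between 69.9 ± 18.7 and 131 ± 26.5 from 1 h on. The fed to starved ratio was 1.62 at 6 h and 10.8 as measured at 15 h, where the starved level was not detected. At 3 h, where it was not detected either, the measured ratio was 3.03. The ratios at 3 h and 15 h use the undetected level as measured, so their size is uncertain. Beside hsp-4, the summed level of the moulting list was 4741 in fed larvae at 12 h and 719 at 15 h. The part of stage in this and in the other ER levels was not tested.

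The lectin chaperones differed least. The calreticulin gene crt-1 was 2485 ± 132 in fed and 2251 ± 92.8 in starved larvae at 3 h, 3069 ± 123 and 1928 ± 80.7 at 6 h, and 3734 ± 243 and 3116 ± 125 at 24 h. The calnexin gene cnx-1 was 302 ± 19.4 in fed and 315 ± 13.6 in starved larvae at 3 h, 473 ± 18.1 and 358 ± 16.8 at 12 h, and 415 ± 18.9 and 372 ± 15.2 at 24 h. Fed and starved ranges overlapped for both. Over all 18 conditions the highest level of cnx-1 was 1.79 times its lowest, the smallest such ratio among the 10. That of hsp-4 was 14.8 as measured, over a level that was not detected. Ranked by level, few neighbouring conditions of a member stood more than 2 combined errors apart: of 17 neighbouring pairs, 5 did for pdi-2, 4 for daf-21, 2 for hsp-1, 1 each for pdi-1 and cnx-1, and 0 for the other 5.

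Over the 7 matched times, 9 of the 10 chaperones were higher in fed larvae and 0 lower (limma with time as a factor, Benjamini-Hochberg adjusted p under 0.05 over all probe sets), where 13.5% of all probe sets were called higher. The log2 difference, fed minus starved, was 1.64 ± 0.33 (SE) for hsp-60 (adjusted p = 0.0130), 1.61 ± 0.35 for hsp-4 (0.0157), 1.39 ± 0.30 for pdi-2 (0.0148) and 1.32 ± 0.32 for hsp-6 (0.0222). It was 1.26 ± 0.24 for hsp-1 (0.0102), 1.10 ± 0.22 for hsp-3 (0.0125), 0.75 ± 0.19 for pdi-1 (0.0249), 0.52 ± 0.16 for daf-21 (0.0499) and 0.40 ± 0.08 for crt-1 (0.0137). Calnexin, at 0.14 ± 0.06, did not pass (0.141). The median of the 10 was 1.18. Over all probe sets it was 0.00, which is also the value of sets at the floor of 5 throughout. That median therefore says little about genes that were detected. The shares of all probe sets given here and below likewise count sets that were not detected. The sign was the same at 7 of 7 times for 7 members. In hsp-1, hsp-60, hsp-3 and pdi-2 the lowest of the 7 fed levels lay above the highest of the 7 starved ones, 4 of 10 members, as in 3.52% of all probe sets. The members were chosen with earlier results of these data known, so their counts beside all probe sets are a description only.

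The fitted values of hsp-4 use its level at 3 h and 15 h of starvation as measured, though it was not detected there. Some of the calls were lost when a time was left out or a setting was changed. The call of daf-21 was lost after quantile normalization (0.51, adjusted p = 0.0669), with a pseudocount of 16 (0.52, 0.0513), and without 0 h (0.57), 1 h (0.50), 3 h (0.43), 6 h (0.44), 12 h (0.50) or 15 h (0.59). That of hsp-6 was lost without 3 h (1.28), 6 h (1.31), 12 h (1.25) or 15 h (1.26), and that of pdi-1 without 6 h (0.73), 12 h (0.66), 15 h (0.69) or 24 h (0.64). The fit takes the 7 times as independent, though neighbouring times can share a food difference.

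**Figure D2:**
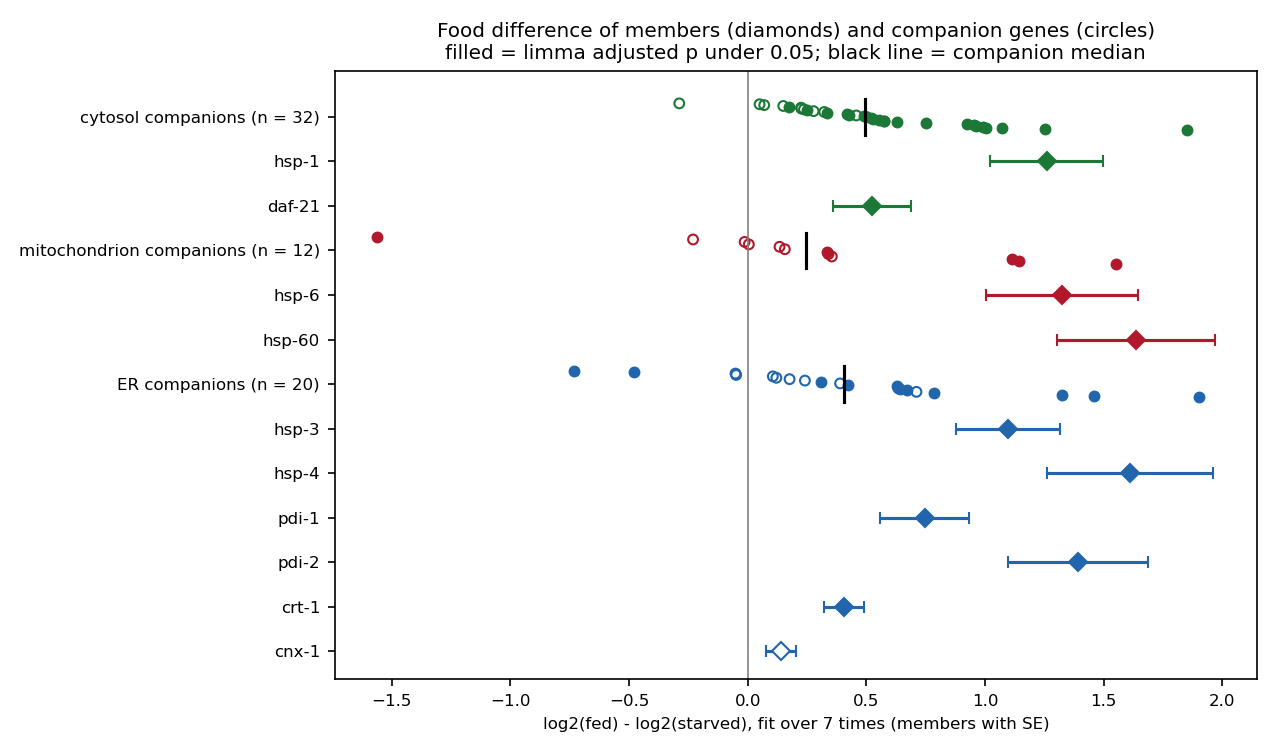
Log2 difference between fed and starved larvae over 7 times for the 10 members (diamonds, bars = SE) and 64 other genes (circles, black line = their median). The 64 genes belong to the same compartments and are chaperones and folding enzymes, with some proteases, stress regulators and a peptide exporter. Filled symbols passed an adjusted p of 0.05 in limma. The 9 filled diamonds lie between 0.40 and 1.64, and cnx-1 is open at 0.14.

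At single times the authors' deposited p for each pair, adjusted here over all probe sets, made few calls. It called 0 of 10 members higher at 0 h (0% of all probe sets), 0 at 1 h (0%) and 0 at 3 h (0.417%), though 0, 3 and 5 members had an unadjusted p under 0.05 at these times. It called hsp-1 at 6 h (0.763% of all), when all 10 had an unadjusted p under 0.05. At 12 h it called 7 members higher against 4.59% of all: hsp-1, hsp-6, hsp-60, hsp-3, hsp-4, pdi-1 and pdi-2. It called hsp-1 and hsp-60 at 15 h (2.19%), and hsp-6, hsp-3 and pdi-2 at 24 h (3.87%). No member was called lower at any of the 7 times.

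A second, error-based test divided the difference of the means by their deposited errors. It takes each error as the standard error of a mean of 3 independent arrays, which the sources used here do not state. It called 0 members and 0 of all probe sets at 0, 1, 3 and 6 h, with 2, 4, 7 and 8 members at an unadjusted p under 0.05. It called 8 at 12 h (4.57% of all), 5 at 15 h (1.22%) and 5 at 24 h (4.40%). At 12 h the log2 differences ran from 0.40 ± 0.09 for cnx-1 to 2.52 ± 0.15 for pdi-2, and all 10 were above 0.

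**Figure D3:**
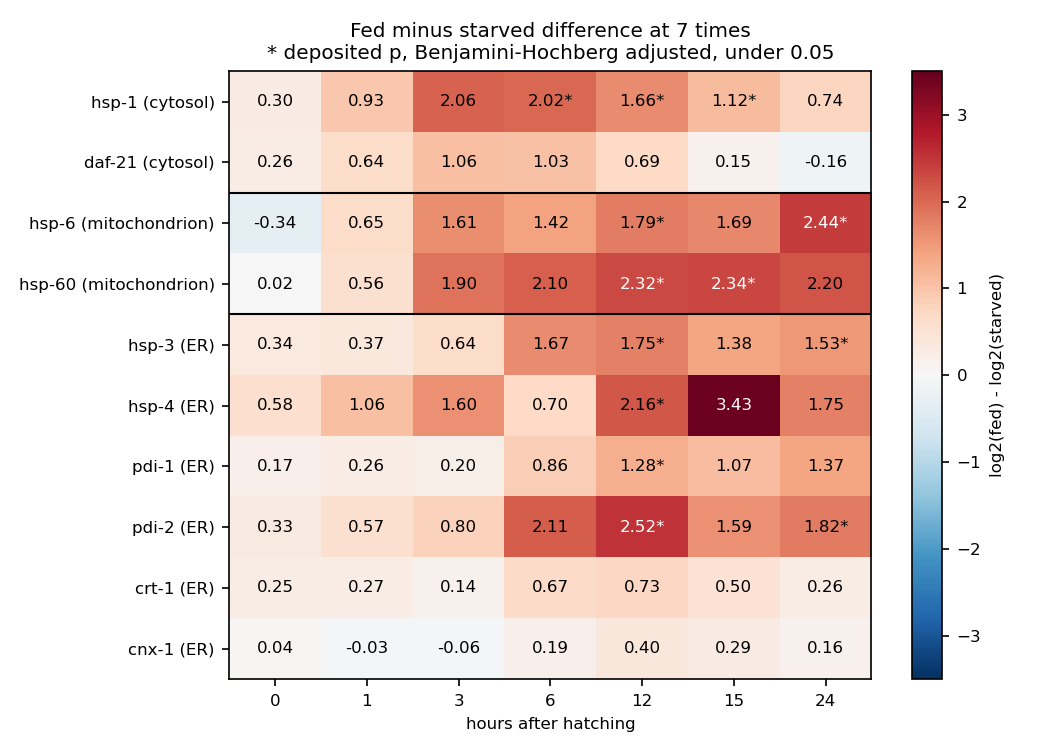
Log2 level in fed minus log2 level in starved larvae for each member (rows, by compartment) at each of 7 times (columns). Stars mark an adjusted deposited p under 0.05. The cytosolic and mitochondrial rows reach 1.06 to 2.06 by 3 h. There hsp-4 is at 1.60, over a starved level that was not detected, and the other 5 ER rows lie between -0.06 and 0.80.

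The timing differed between members. The median log2 food difference of the 2 cytosolic genes was 0.79 at 1 h, 1.56 at 3 h, 1.17 at 12 h and 0.29 at 24 h. That of the 2 mitochondrial genes was 0.61, 1.76, 2.06 and 2.32 at the same times, and that of the 6 ER genes 0.32, 0.42, 1.52 and 1.45. Whether compartments differ was not tested. In the authors' deposited 2-factor analysis of variance, adjusted here, all 10 members passed for food by time, against 54.7% of all probe sets.

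The change of the food difference with log2 of (hours + 1) was called for 3 members, all upward, against 2.14% of all probe sets: hsp-60 (0.51 ± 0.09 per unit, limma adjusted p = 0.0414), hsp-6 (0.50 ± 0.08, 0.0307) and pdi-1 (0.29 ± 0.05, 0.0354). These calls depended on the times used. All 3 were lost without 0 h, 1 h, 6 h, 12 h or 24 h, where hsp-60 had values of 0.42 to 0.61, hsp-6 of 0.38 to 0.52 and pdi-1 of 0.27 to 0.35. Without 15 h the calls of hsp-60 (0.51) and pdi-1 (0.30) were lost.

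The difference at 12 h minus that at 3 h, a comparison chosen after the levels were seen, was tested with the deposited errors alone, on the same assumption, and called 3 members higher, against 1.22% of all probe sets. It was 1.72 ± 0.25 for pdi-2 (adjusted p = 0.0172), 1.12 ± 0.23 for hsp-3 (0.0491) and 1.08 ± 0.19 for pdi-1 (0.0311), all of the ER. It did not pass for crt-1 (0.59 ± 0.13, 0.0617), cnx-1 (0.46 ± 0.14), hsp-4 (0.57 ± 0.59), hsp-60 (0.42 ± 0.41) or hsp-6 (0.18 ± 0.43). The cytosolic values were below 0, at -0.40 ± 0.18 for hsp-1 and -0.37 ± 0.12 for daf-21, and did not pass either.

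During arrest the cytosolic and mitochondrial differences had opposite signs. Between 0 and 24 h without food, daf-21 rose by 0.80 ± 0.10 on the log2 scale, the single member called higher (adjusted p = 0.0448, by the error-based test and its assumption alone, with 1.77% of all probe sets called higher). The mitochondrial genes had log2 differences of -1.79 ± 0.36 for hsp-6 and -1.09 ± 0.26 for hsp-60, which did not pass (adjusted p = 0.0849 and 0.123), and hsp-1 one of 0.24 ± 0.14. From 3 to 24 h of starvation, times chosen after the levels were seen, hsp-1 differed by 1.31 ± 0.12, daf-21 by 1.08 ± 0.08, hsp-6 by -1.11 ± 0.38 and hsp-60 by -0.46 ± 0.27. This test called 0 members and 0 of all probe sets, with 5 members at an unadjusted p under 0.05. In fed larvae from 0 to 24 h it also called 0 members and 0 of all probe sets. There 9 members had an unadjusted p under 0.05 and all 10 differences were above 0, from 0.22 to 1.43.

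After 12 h of arrest and 3 h of food, the cytosolic and mitochondrial genes were near or above their levels in larvae fed for 3 h from hatching. In refed larvae hsp-1 was 4647 ± 247, beside 1596 ± 106 at 12 h and 1934 ± 115 at 15 h of starvation. The level of daf-21, 4712 ± 182, was its highest of all 18 conditions. The levels of hsp-60 (1222 ± 113) and hsp-6 (352 ± 44.7) lay within their errors of those after the first 3 h of food (1163 ± 193 and 357 ± 58.8). Of the ER genes, hsp-3 was 1145 ± 94.8, pdi-2 914 ± 57.1, pdi-1 933 ± 80, hsp-4 384 ± 67, crt-1 3293 ± 132 and cnx-1 444 ± 17.3, each above its level after the first 3 h of food. The median log2 difference, refed minus fed 3 h, was 0.41 over the 6 ER members, 0.29 over the cytosolic pair and 0.02 over the mitochondrial pair. Both tests called 0 members and 0 of all probe sets in this comparison, with 3 members at an unadjusted p under 0.05.

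Against larvae starved for 15 h all 10 log2 differences were above 0. They were 2.30 ± 0.24 for hsp-60, 2.13 ± 0.31 for hsp-6 and 2.00 ± 0.50 for hsp-4 (its starved level was not detected). Next came 1.26 ± 0.12 for hsp-1, 1.05 ± 0.14 for pdi-2 and 1.04 ± 0.15 for hsp-3. The other 4 ran from 0.19 ± 0.09 for cnx-1 to 0.59 ± 0.10 for daf-21. The adjusted deposited p called 0 members (0.878% of all probe sets higher), with 9 at an unadjusted p under 0.05, and the error-based test called hsp-1 (0.679% of all).

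Against larvae starved for 12 h the deposited p called hsp-1 (1.54 ± 0.12, adjusted p = 0.0485) and hsp-60 (2.23 ± 0.23, 0.0391), with 1.36% of all probe sets called higher. The error-based test called 5 members (2.05% of all). The refed arrays were hybridized on 1 day that held no fed or starved S-complete array, so day and refeeding cannot be told apart in these pairs.

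After 12 h of food and 3 h without it no member was called lower than in larvae fed for 15 h or 12 h, and the values below are given as measured. The level of hsp-1 was 2211 ± 171 after food removal and 4203 ± 225 in larvae fed for 15 h, a log2 difference of -0.93 ± 0.14. It was -1.05 ± 0.28 for hsp-6, -0.55 ± 0.20 for hsp-60 and -0.39 ± 0.10 for daf-21. Of the ER genes, hsp-4 was at -0.63 ± 0.38. The others lay between -0.14 ± 0.11 for hsp-3 and 0.09 ± 0.10 for crt-1, which was -0.0087 after quantile normalization. Against larvae fed for 12 h, the last time before removal, it was -1.26 ± 0.26 for hsp-6, -1.19 ± 0.14 for hsp-1, -0.88 ± 0.14 for the ER gene pdi-2, -0.64 ± 0.08 for daf-21 and -0.59 ± 0.25 for hsp-60. There hsp-3 and pdi-1 were both at -0.32, cnx-1 at -0.10, crt-1 at 0.09 (-0.022 after quantile normalization) and hsp-4 at 0.47 ± 0.36. Compartments were not tested against each other. Against larvae fed for 15 h and 12 h the deposited p called 0 members, with 2 and 4 at an unadjusted p under 0.05. The error-based test called 0 members in both pairs, with 3 and 4. Of all 22548 worm probe sets, the deposited p called only 1 and 6 in these pairs, and the error-based test 0 in both.

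Compared with 3 h of starvation from hatching, 3 h of starvation after feeding left 7 members higher by the deposited p, against 3.06% of all probe sets: hsp-1, daf-21, hsp-3, pdi-1, pdi-2, crt-1 and cnx-1. The largest of these log2 differences was 1.59 ± 0.14, for pdi-2. The value of hsp-4 was 3.26 as measured, over a level that was not detected, and that of hsp-60 1.47 ± 0.23, neither called. The value of hsp-6 was 0.11 ± 0.30. The error-based test called 0 members and 0 of all probe sets, with 9 members at an unadjusted p under 0.05. These groups also differed in age, 15 h and 3 h, and the moulting list summed to 1327 after food removal and to at most 237 in starved larvae. The food-removed arrays were hybridized on 1 day that held no fed or starved S-complete array, so day and food removal cannot be told apart in the pairs with either.

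The comparison of refed larvae with larvae whose food was removed was chosen after seeing the data. Both groups had the same age, 15 h, and their arrays shared a hybridization day. Between them hsp-1 was higher in refed larvae by 1.07 ± 0.14 on the log2 scale (error-based adjusted p = 0.0449) and daf-21 by 0.82 ± 0.08 (0.0448), 2 members called against 2.22% of all probe sets, by the error-based test and its assumption alone. The mitochondrial differences of 1.49 ± 0.28 for hsp-6 and 0.50 ± 0.20 for hsp-60 were not called. Of the ER genes, hsp-4 was at -0.80 ± 0.40, pdi-1 at -0.52 ± 0.15, pdi-2 at -0.41 ± 0.13, hsp-3 at -0.21 ± 0.14 and cnx-1 at 0.0079 ± 0.08. The value of crt-1, -0.21 ± 0.08, was 0.06 after quantile normalization. None of the 6 was called. The 2 groups also differed in what went before, 12 h with or without food, and the moulting list summed to 1327 after food removal and 311 in refed larvae.

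**Figure D4:**
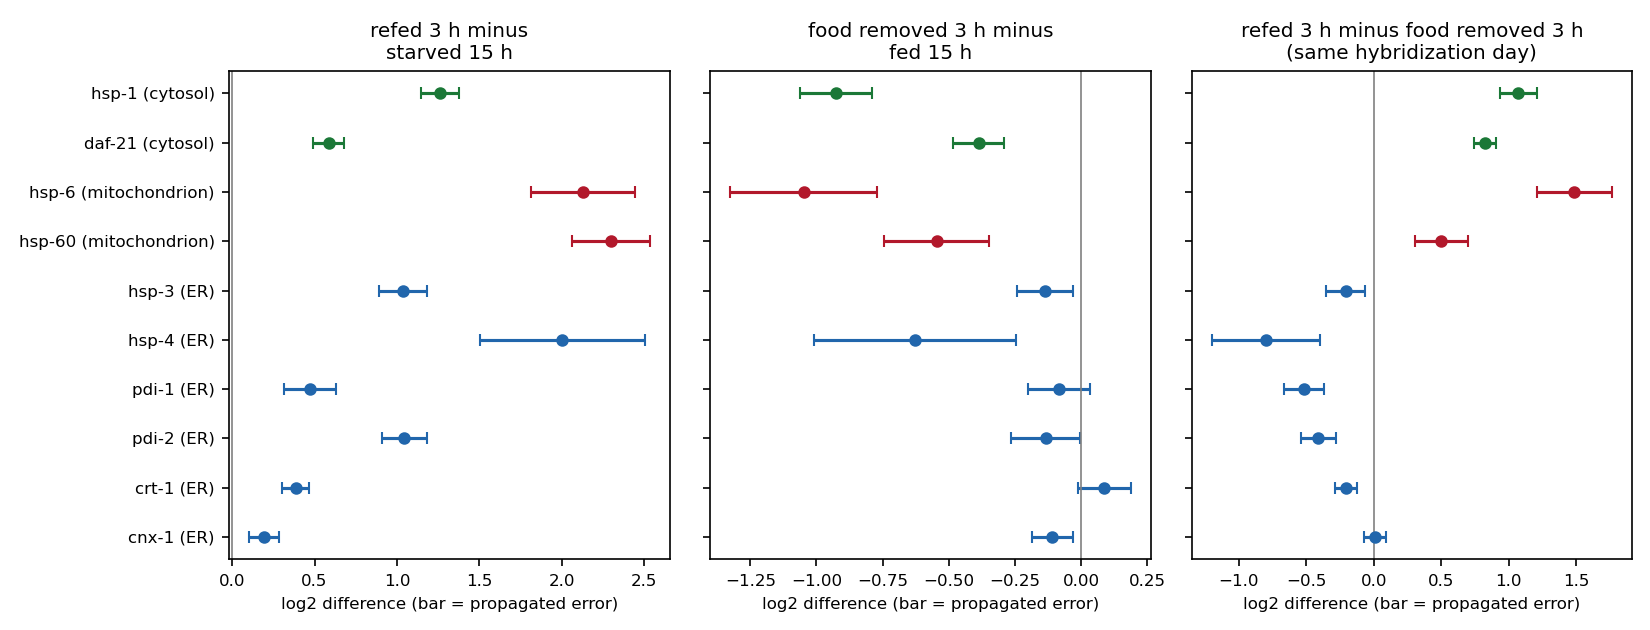
Log2 differences of the 10 members between refed larvae and larvae starved for 15 h (left), larvae whose food was removed and larvae fed for 15 h (middle), and refed and food-removed larvae (right), with errors propagated from the deposited errors. All 10 points lie above 0 on the left, and all but that of crt-1 below 0 in the middle. On the right the 4 cytosolic and mitochondrial points lie above 0 and 5 of the 6 ER points below it. In the middle and right panels the point of crt-1 changes sign under quantile normalization.

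Levels after 3 h of starvation were close in both media. In M9 the level of hsp-1 was 1079 ± 80.9, against 986 ± 61.3 in S-complete at 3 h, and that of daf-21 was 1730 ± 125 against 1711 ± 71.4. The 10 log2 differences, M9 minus S-complete, lay between -0.02 ± 0.11 for cnx-1 and 0.34 ± 0.14 for hsp-3. Both tests called 0 members and 0 of all probe sets, with 0 members at an unadjusted p under 0.05.

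The M9 arrays shared hybridization days with the fed arrays, so the fed minus M9 difference at 3 h compares food within days, with the medium changed as well. It was 1.93 ± 0.15 for hsp-1, 1.75 ± 0.32 for hsp-60 and 1.47 ± 0.51 for hsp-4 (its M9 level was not detected). For hsp-6 it was 1.37 ± 0.34 and for daf-21 1.05 ± 0.12. It was 0.68 ± 0.21 for pdi-2 and 0.29 ± 0.20 for hsp-3, while pdi-1 (0.12 ± 0.15), crt-1 (-0.08 ± 0.11) and cnx-1 (-0.04 ± 0.13) lay within their errors of 0. The error-based test called 0 members and 0 of all probe sets, with 6 members at an unadjusted p under 0.05. The values against S-complete at 3 h were 2.06 ± 0.13 for hsp-1, 1.06 ± 0.09 for daf-21, 1.61 ± 0.32 for hsp-6, 1.90 ± 0.30 for hsp-60, 0.80 ± 0.20 for pdi-2, 0.64 ± 0.19 for hsp-3, 0.20 ± 0.13 for pdi-1, 0.14 ± 0.10 for crt-1 and -0.06 ± 0.11 for cnx-1. Both comparisons use the same fed arrays.

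Around hatching no member passed. Starved larvae at 0 h minus embryos gave 1.23 ± 0.31 for hsp-6 (79.1 ± 14 in embryos and 186 ± 23 at 0 h), and -0.67 ± 0.09 for cnx-1 (424 ± 16.7 and 267 ± 12.1). The other 8 ran from -0.51 ± 0.15 for pdi-1 to 0.49 ± 0.24 for hsp-60. The deposited p and the error-based test each called 0 members here, with 4 at an unadjusted p under 0.05. Of all 22548 worm probe sets they called 542 and 646. Against embryos, fed larvae at 0 h gave 0.90 ± 0.42 for hsp-6 and -0.63 ± 0.10 for cnx-1. Both tests called 0 members and 0 of all probe sets there, with 1 and 3 members at an unadjusted p under 0.05.

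A list of 66 further genes of the 3 compartments was read beside the members. It holds chaperones and folding enzymes, but also proteases, a peptide exporter and stress regulators, so its counts and medians are not those of chaperones alone. Of these, 64 were matched to a uniquely mapped probe set, and 1, uggt-2, was never detected. In the fit over 7 times 35 of the 64 were higher in fed larvae and 3 lower, with a median log2 difference of 0.42. Of all probe sets 13.5% were called higher and 16.8% lower. The list, like the members, was chosen with earlier results of these data known. In the cytosol 21 of 32 were higher and 0 lower (median 0.50). They were led by the Hsp70 and Hsp90 adaptor sti-1 (1.85 ± 0.26), the chaperonin subunit cct-8 (1.25 ± 0.33), the J-protein gene dnj-13 (1.07 ± 0.21) and the p23 co-chaperone gene daf-41 (1.00 ± 0.18). In starved larvae sti-1 was 23.8 to 46.4 with a median of 35.5, and in fed larvae 61.6 to 174 with a median of 142. It was detected at 1 of the 7 starved times and cct-8 at 3 of them, and both at all 7 fed times, so their differences rest in part on starved levels that were not detected.

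In the mitochondrion 4 of 12 were higher and 1 lower (median 0.25). The 3 largest upward differences were those of Y22D7AL.10, the small chaperonin partner of hsp-60 (1.55 ± 0.29), C34C12.8, the nucleotide exchange factor of the GrpE family (1.14 ± 0.23), and the protease gene spg-7 (1.11 ± 0.29), which was detected at 2 of 7 starved and 6 of 7 fed times. The peptide exporter gene haf-1 was lower (-1.56 ± 0.09), with 19.1 to 72.7 in starved and 7.75 to 18.4 in fed larvae, and was detected at 6 of 7 starved and 0 of 7 fed times. In the ER 10 of 20 were higher and 2 lower (median 0.41), led by the prolyl isomerase genes fkb-5 (1.90 ± 0.42) and cyn-6 (1.46 ± 0.40), the J-protein gene dnj-27 (1.32 ± 0.26) and the disulphide isomerase gene pdi-6 (0.78 ± 0.13). Of these, fkb-5 and dnj-27 were detected at 5 starved times and cyn-6 at 4. The 2 lower ones, named after their values were seen, were the genes of the ER stress sensors pek-1 (-0.48 ± 0.06) and atf-6 (-0.73 ± 0.18). The third sensor gene, ire-1, was at -0.05 and xbp-1, whose messenger RNA the IRE-1 protein splices, at 0.18, and neither passed.

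Of all probe sets, 0.878% were called higher in refed larvae than at 15 h of starvation by the deposited p. It called 5 of the 32 cytosolic companions higher, 1 of the 12 mitochondrial ones and 0 of the 20 of the ER. Their median log2 differences were 0.95, 0.53 and 0.06. Among those called, the largest differences were those of daf-41 (1.49 ± 0.12), the immunophilin gene fkb-6 (1.48 ± 0.12), dnj-13 (1.37 ± 0.16), the chaperonin subunit cct-1 (1.10 ± 0.07) and C34C12.8 (1.66 ± 0.16). Other companions had larger differences that were not called, among them sti-1 with 2.20 ± 0.32. The medians between refed and food-removed larvae, a comparison chosen after seeing the data, were 0.84, 0.34 and -0.22. There the error-based test called 12 of the cytosolic companions higher and 0 lower, with 2.22% of all probe sets called higher. The single-time medians peaked at 3 h in the cytosol (0.79) and at 12 h in the ER (0.73), where they were 0.08 at 3 h.

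**Figure D5:**
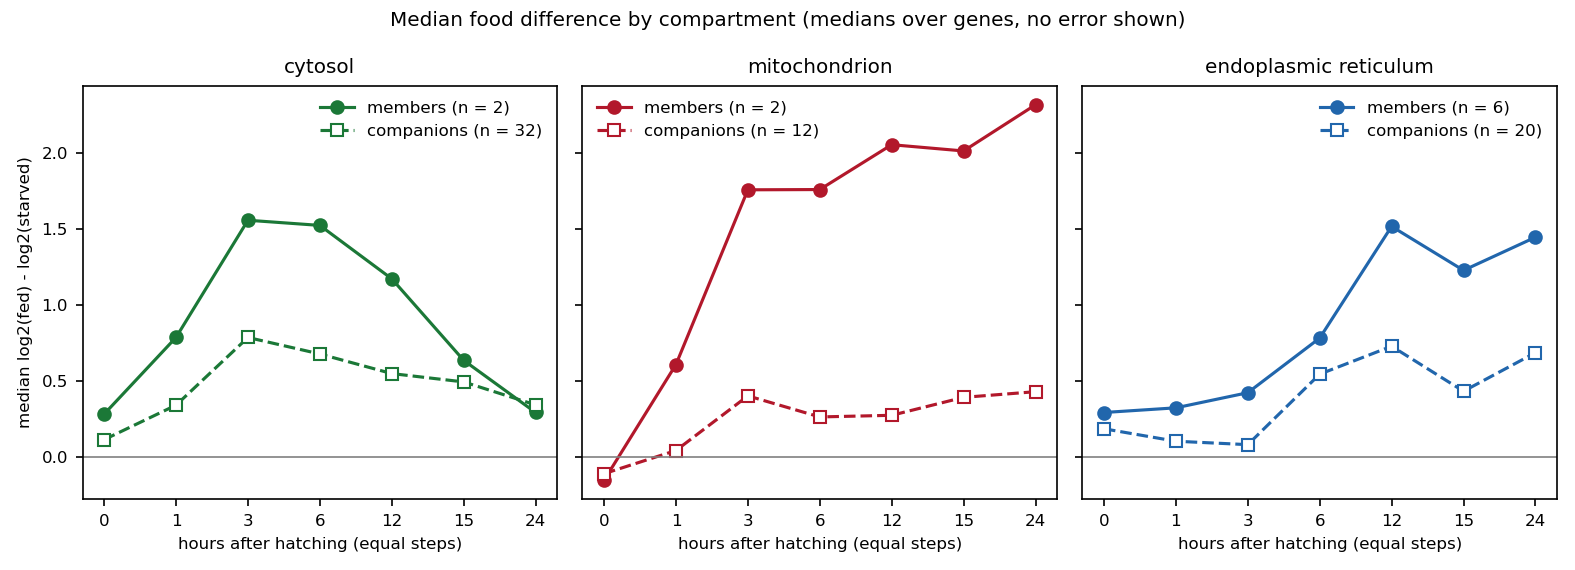
Median log2 difference between fed and starved larvae at 7 times, over the members (solid line) and the companion genes (dashed line) of each compartment. Medians are over genes and carry no error. The cytosolic medians are highest at 3 h and the ER medians at 12 h, for members (1.56 and 1.52) and companions (0.79 and 0.73).

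Across the 18 conditions, which share culture series and hybridization days, log2 levels of hsp-3 and pdi-2 correlated with a Pearson r of 0.97, those of hsp-6 and hsp-60 with 0.90, and those of hsp-1 and daf-21 with 0.89. The lowest r among members was 0.05, for hsp-6 and cnx-1. Among 3633 named genes detected in 9 or more conditions, the profile most like hsp-1 was that of dnj-13 (r = 0.96), then sap-1 (0.95, now mog-2) and fkb-6 (0.94). For daf-21 they were rnp-3 (0.98), aos-1 and smu-1 (0.95 each). For hsp-60 they were mppa-1 (0.98), tufm-1 (0.96) and arx-7 (0.95), and for hsp-6 exos-4.1 (0.96), phb-1 (0.95) and gst-26 (0.94).

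Of the ER genes, hsp-3 was most like pdi-2 (0.97), tfg-1 (0.95) and dnj-29 (0.94), and pdi-2 like hsp-3, cogc-4 and tfg-1 (0.96 each for the latter). The profiles closest to hsp-4 were those of cup-2 (0.93), sft-4 (0.92) and dnj-27 (0.91). Those closest to pdi-1 were mua-3 (0.98), nucb-1 (0.96) and tag-335 (0.96). The closest to crt-1 were pdi-3 (0.93), gly-7 (0.92) and snx-1 (0.90), and to cnx-1 syd-2 (0.89), ebp-2 (0.87) and snf-1 (0.87).

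Of the 10 members, 5 had further unique probe sets. The second set of daf-21 gave a log2 food difference of 0.58 ± 0.18 (limma adjusted p = 0.0476), a second set of hsp-60 one of 1.68 ± 0.34 (0.0128) and that of pdi-1 one of 0.74 ± 0.22 (0.0415). Sets of the same gene disagreed in size for pdi-2, with 0.56 ± 0.14 (0.0219) on the second set against 1.39 on the first. The second set of crt-1 gave 0.12 ± 0.05 and did not pass (0.151). Of the other sets of hsp-60, 1 was detected in 4 conditions (0.47 ± 0.17, 0.0801) and 1 in none.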

How the data were processed

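The 18 conditions entered as 1 value each. The authors deposited expression as a linear-scale intensity, averaged over 3 arrays and with values under 5 raised to 5, per the read-me and the file headers. The error of each mean is an intensity deposited in the same unit, and its estimator is not given in the sources used here, nor are background correction and normalization between arrays. Detection was read as a score deposited by the authors, with a probe set called detected under 1e-10, per the file headers. The authors deposited p-values for 30 pairs of conditions and for analyses of variance. The deposited 1-factor analysis does not name its conditions, so times within a feeding state were compared in pairs instead.

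Of 22625 probe sets, 77 controls were left out. The annotation is that of WormBase release 180, with names updated through RefSeq (assembly WBcel235) and the platform annotation. Log2 of the means was fitted with limma 3.58.1 in R 4.3.3 over 14 fed and starved conditions with time as a factor. Its slope model used log2(hours + 1). Pairs used the deposited p. The error-based test set the difference of 2 linear means against the root of their summed squared errors with 4 degrees of freedom, and a difference of differences likewise on the log2 scale with 8. Both degrees of freedom take the error as a standard error over 3 independent arrays. Errors of log2 differences were propagated from the deposited errors. All p-values were Benjamini-Hochberg adjusted over all worm probe sets with a threshold of 0.05. The steps were tested on simulated data.

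The members and gene lists were chosen with earlier results of these data known. Companion genes were named if among the 4 largest differences past the threshold in a compartment, in the 7-time fit or on refeeding, and like profiles as the 3 with the highest r. Alternatives were quantile normalization, a pseudocount of 16, filters on detection, no time factor, an intensity trend, the mean of a gene's probe sets, each time left out, and the error-based test. No sequences or coordinates were used here.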

Additional observations from a re-analysis of the deposited data

Results flagged for a closer look

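For all 10 members the difference between fed and starved larvae changed with time in the authors' deposited 2-factor analysis of variance. After adjustment over all probe sets, the food by time term stood at 1.33e-15 for hsp-1, daf-21, hsp-60, hsp-3, hsp-4 and pdi-2. For these 6 the deposited p was the smallest value of its column. It was 1.22e-14 for hsp-6 and 2.25e-14 for pdi-1, and larger for the lectin chaperones, at 0.000236 for crt-1 and 0.00129 for cnx-1. This term passed for 54.7% of all probe sets. It was computed by the authors on arrays whose fed and starved sets shared 0 hybridization days.

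The food differences of the members were largest at different times. For hsp-4 the log2 difference was 3.43 at 15 h, over a starved level that was not detected, and 0.58 at 0 h. It was 2.44 at 24 h and -0.34 at 0 h for hsp-6, and 2.52 at 12 h and 0.33 at 0 h for pdi-2. For hsp-60 it was 2.34 at 15 h and 0.02 at 0 h. For daf-21 it was 1.06 at 3 h and -0.16 at 24 h, and for hsp-1 2.06 at 3 h and 0.30 at 0 h. That of hsp-3 was 1.75 at 12 h, and those of pdi-1, crt-1 and cnx-1 were 1.37 at 24 h, 0.73 at 12 h and 0.40 at 12 h.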

How the results depend on the processing

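Most values kept their direction and their side of the threshold: 723 of the member-level values under alternatives did so, 50 were no longer past it, 49 newly passed and 8 changed sign. Of the counts of calls, 148 stayed within 1.5 times the reported one and 25 did not. Depth has no counterpart here, and 3 arrays per mean limit the precision. The refed to food-removed comparison, the pairs of times within a feeding state and the difference of differences were chosen after seeing the data. No paired analysis was possible because each condition is deposited as 1 mean of its arrays and the labels carry no replicate number.

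The 9 calls of the 7-time fit became 6 to 8 with a time left out and 0 for fed 3 h against M9 on shared days, a pair with fewer arrays, where crt-1 was -0.080 and cnx-1 -0.038. The 3 calls of the slope became 0 to 3 with a time left out, and 10 members passed the authors' food by time term. With a time left out the slope of hsp-1 ran from -0.11 (without 0 h) to 0.26 (without 24 h), and that of daf-21 from -0.24 (without 0 h) to 0.014 (without 24 h).

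The error-based test in place of the deposited p called 0 members in place of 1 at 6 h, 5 in place of 2 at 15 h and 5 in place of 3 at 24 h. On refeeding it called 1 in place of 0 against 15 h and 5 in place of 2 against 12 h of starvation. On food removal against 3 h of starvation it called 0 in place of 7. At 6 h and in that food removal pair it called 0 of all probe sets. Another setting adjusted only over probe sets detected in 1 or both conditions, so over fewer tests. With it the deposited p called 1 member at 3 h, 7 at 6 h and 8 at 15 h. On refeeding it called 3 against 15 h and 6 against 12 h of starvation. The share of all probe sets called under this filter is not given here, for these counts or the next. At 3 h and 15 h hsp-4 entered the filter through its fed level alone. The same filter, with the error-based test for pairs of times, gave 1 member higher in starved larvae at 0 h than in embryos, 3 higher and 1 lower at 24 h than at 0 h of starvation, 5 higher at 24 h than at 0 h of feeding, 2 higher at 24 h than at 3 h of starvation and 2 higher at 12 h than at 3 h of feeding. After quantile normalization hsp-6 was 0.0030 between refed and fed 3 h larvae, and crt-1 was 0.058 between refed and food-removed larvae, -0.0087 against fed 15 h and -0.022 against fed 12 h after food removal. The cause of these moves was not tested beyond the number of tests and arrays named.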
